A study of Mus musculus with 9 samples.

Results

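The genes described are 10 transcription factor genes of the AP-1, ATF3 and BATF groups, *Fos*, *Fosb*, *Fosl2*, *Jun*, *Junb*, *Jund*, *Atf3*, *Batf*, *Batf2* and *Batf3*, chosen by name among the 52550 genes of 1 mouse RNA-Seq library. Each symbol matched 1 gene, and all 10 had reads. The series had 9 libraries, 3 of each of 3 *Ncf1* genotypes, WT (G/G), heterozygous (G/A) and homozygous (A/A) KI. The library described is A/A replicate 1. All groups were sorted splenic pDCs of C57BL/6 mice cultured with the TLR7/-8 ligand R848 (10 μg/mL) for 12 hours, and no group was left unstimulated. Mice were 10 to 12 weeks old, and the pDCs were sorted as CD11c-intermediate, SiglecH+ and PDCA1+. The KI allele was made with CRISPR/Cas9 and changes arginine to histidine in NCF1, a subunit of the NOX2 complex. Values of the remaining 8 libraries were not used here. Genotypes therefore could not be compared, and every value stands without a replicate error.

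AP-1 is a family of dimers of basic leucine zipper (bZIP) proteins, in which a leucine zipper joins the partners and a basic region reads the DNA. JUN proteins pair with each other or with FOS, ATF or BATF proteins, whereas FOS and BATF proteins bind DNA mainly as partners of JUN proteins. TLR7 signals through MyD88 to MAP kinases that induce and phosphorylate AP-1 factors, and BATF dimers also bind DNA together with IRF4 or IRF8. In dendritic cells, BATF3 is best known for the development of conventional type 1 DCs (cDC1s).

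The library held 31408298 reads over 17664 genes with reads. Gene coordinates are those of the deposited file and match GRCm38. *Ncf1*, the edited gene, had 1079 CPM (reads scaled to a library total of 1000000), but gene totals do not separate the alleles. Of 11 pDC marker genes all had reads, with a median of 251 TPM (reads per base of annotated exon, scaled to a sum of 1000000 over all genes). With genes at 0 included, the medians of other marker lists were 35.8 TPM for 7 conventional DC genes and 21.1 for 6 macrophage genes. They were 9.59 for 7 cDC1 genes, 7.69 for 6 neutrophil genes and 1.29 for 5 B cell genes. Over genes with reads only, these medians were 46.4, 22.1, 9.59, 47.9 and 2.72 TPM in the same order. The medians of 5 T cell and 5 NK cell genes were 0, and *Cd3e*, *Cd3d*, *Cd3g* and *Ncr1* were listed at 0. The pDC list was uneven, from 17.9 TPM for *Bcl11a*, 34.0 for *Tcf4* and 35.3 for *Pacsin1* to 6001 for *Ly6d*. *Bcl11a*, *Tcf4* and *Pacsin1* thus lay below the conventional DC median of 35.8 TPM. For *Tcf4* this depended on the length. With no length it had 358 CPM, above every conventional DC gene listed but *Ccr7*. *Bcl11a* had 90.6 CPM and *Pacsin1* 88.6, below the conventional DC gene *Zbtb46* (106 CPM). The other lists were uneven too. *Ccr7* (4851 TPM), a receptor of mature DCs, and the macrophage genes *Cd68* (616 TPM) and *Lyz2* (409.9 TPM) were above the pDC median, whereas *Cd209a* and *Marco* were listed at 0. Of the neutrophil genes, *S100a8* had 55.0 TPM and *S100a9* 47.9 TPM, whereas *Ly6g*, *Mpo* and *Elane* were listed at 0, as was *Pax5* of the B cell list. The part of other cells in the levels below was not tested, and a bulk library cannot tell fewer cells of a type from less RNA per cell. The mice are described as female in the study's methods. In this library, however, *Xist* was listed at 0 and 4 Y-linked genes had 19.0 to 102 CPM.

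The promoters of 6 of the genes are shown first. The TPA response element (TRE) is the classical AP-1 site and the cAMP response element (CRE) the classical ATF and CREB site. These 6 promoters held neither site in full. They are the ones, among the 9 promoters found, with a part or a variant of the CRE, so sharing it follows from the choice. RefSeq promoters (GRCm38.p6) were found for 9 of the 10 genes, each 250 bases before and 50 bases after the transcript start. *Batf2* had no entry. The stretches around the start are printed 5′ to 3′ in the direction of transcription, with the CRE core (TGACG, or CGTCA on the other strand) in capitals, and, in *Jun*, the CRE variant TGACATCA. They lie at *Junb*, chr8:84978734-84978883, minus strand; *Atf3*, chr1:191183319-191183468, minus strand; *Batf*, chr12:85686585-85686734, plus strand; *Jun*, chr4:95052208-95052357, minus strand; *Fos*, chr12:85473755-85473904, plus strand; and *Fosb*, chr7:19310031-19310180, minus strand.
Junb: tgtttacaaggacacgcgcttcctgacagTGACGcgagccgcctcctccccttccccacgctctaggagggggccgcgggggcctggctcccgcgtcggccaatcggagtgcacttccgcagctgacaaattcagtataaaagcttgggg
Atf3: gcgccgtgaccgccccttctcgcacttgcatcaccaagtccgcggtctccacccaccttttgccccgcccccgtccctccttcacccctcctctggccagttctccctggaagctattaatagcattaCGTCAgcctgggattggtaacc
Batf: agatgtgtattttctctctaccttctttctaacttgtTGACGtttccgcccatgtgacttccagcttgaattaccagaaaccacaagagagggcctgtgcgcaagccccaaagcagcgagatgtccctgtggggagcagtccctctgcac
Jun: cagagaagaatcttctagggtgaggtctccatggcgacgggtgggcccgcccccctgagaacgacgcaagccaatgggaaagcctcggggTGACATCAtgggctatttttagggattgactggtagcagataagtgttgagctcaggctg
Fos: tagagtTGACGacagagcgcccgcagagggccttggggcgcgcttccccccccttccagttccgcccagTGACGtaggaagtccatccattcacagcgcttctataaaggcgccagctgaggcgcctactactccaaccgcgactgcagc
Fosb: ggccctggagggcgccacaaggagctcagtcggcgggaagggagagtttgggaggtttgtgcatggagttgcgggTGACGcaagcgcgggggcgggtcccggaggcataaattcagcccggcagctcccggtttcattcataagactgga

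None of the 9 promoters held the TRE (TGACTCA, or TGAGTCA on the other strand) or the full CRE (TGACGTCA), which occurred in 5.20% and 1.79% of all 32851 promoters of the same length. The CRE core, which is also part of the full CRE, was in 5 of the 9 promoters and in 20.8% of all promoters. *Fos* held it at 129 and at 66 bases before the start, *Junb* at 106, *Batf* at 98, *Fosb* at 60 and *Atf3* at 7. *Jun* had none, but held the CRE variant at 45 bases before the start, a motif of 3.62% of all promoters. The core and the variant were chosen after the promoters had been read. An ISRE-like motif, GAAA followed by any 2 bases and GAAA on either strand, was in the *Fosl2* promoter alone (221 bases before the start) and in 3.44% of all promoters. These matches are descriptions of letters, not of binding.

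**Figure D1:**
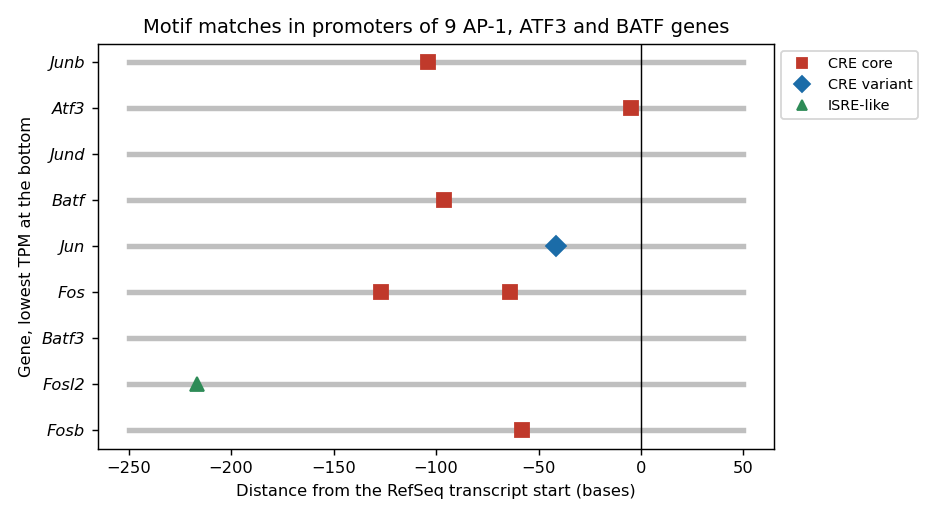
Motif matches in the RefSeq promoters of 9 genes, with the distance from the transcript start in bases on the x axis and the genes ordered by TPM on the y axis, lowest at the bottom. Grey bars are the 300 bases searched. The CRE core appears in the promoters of *Junb*, *Atf3*, *Batf*, *Fos* and *Fosb*, that is, near both the highest and the lowest of the genes.

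The CRE core occurred at genes of high and of low level. *Junb*, which had 816 TPM, and *Fosb*, which had 0.226 TPM, both held it, and *Jund* with 179 TPM held none. The *Jund* window is that of a RefSeq start 1210 bases upstream of the start in the deposited file, and the *Atf3* gene of the deposited file begins 34706 bases upstream of the RefSeq start shown. For the other 7 genes the starts differed by 0 to 671 bases. The GC content of the windows ran from 46.7% for *Jund* to 75.7% for *Batf3*, and the median of all promoters was 52.7%. The share of all promoters with the CRE core was not matched for GC content.

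In A/A replicate 1 the 10 genes differed 3618-fold in level per exon length. *Junb* was the highest, and *Atf3*, *Jund*, *Batf*, *Jun* and *Fos* followed, and these 6 genes had 1464 to 22669 reads each. *Batf2*, *Batf3*, *Fosl2* and *Fosb* were far lower, with 17 to 163 reads. Together the 10 genes had 41253 reads, or 0.131% of the library. Their median was 78.1 TPM, beside 4.94 TPM over all genes with reads and a length, and 7 of the 10 lay above that median.

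**Figure D2:**
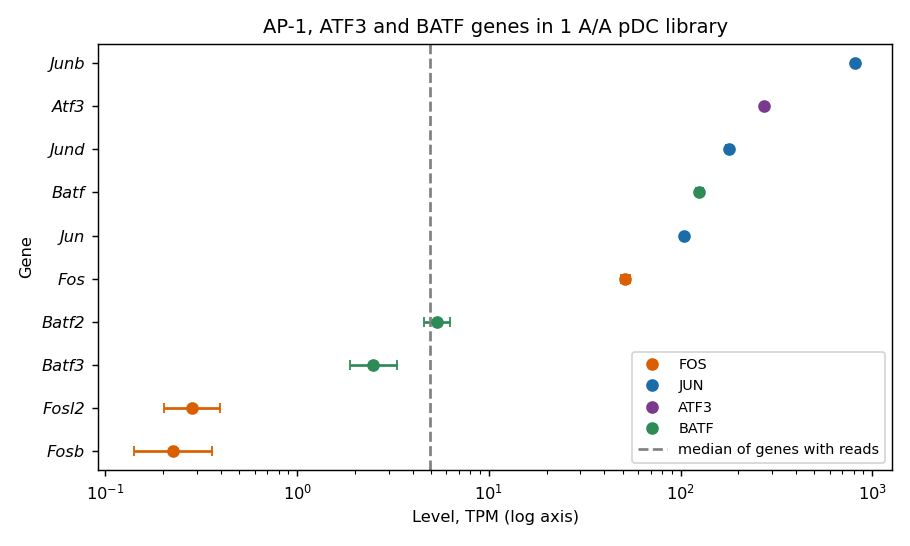
Level of each of the 10 genes in TPM (log axis) in A/A replicate 1, coloured by subfamily. Bars are Wilson 95% intervals of the reads and cover counting error only, and the dashed line is the median of all genes with reads (4.94 TPM). From *Fos* upward the genes stand at 51.5 TPM or more, and *Fosl2* and *Fosb* stand below 1 TPM with overlapping intervals.

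The JUN genes encode the partners that most AP-1 dimers share. *Junb* (ENSMUSG00000052837.6, chromosome 8, 84974484 to 84978718, minus strand) had 22669 reads, 722 CPM (95% CI, 712 to 731) and 816 TPM, at percentile 99.1, that is, above 99.1% of genes with reads. It thus held 52.4% of the summed TPM of the 10 genes. JUNB is the JUN protein often described as a weaker activator that can restrain JUN. *Jund* (ENSMUSG00000071076.6, chromosome 8, 70698949 to 70700616, plus strand), which is widely and steadily expressed in many tissues, had 3610 reads, 115 CPM (95% CI, 111 to 119) and 179 TPM. *Jun* (ENSMUSG00000052684.4, chromosome 4, 95049034 to 95052222, minus strand), the founding member and a substrate of the JNK kinases, had 4032 reads, 128 CPM (95% CI, 124 to 132) and 105 TPM. Per length, *Junb* was 7.79 times as high as *Jun* (95% counting interval, 7.53 to 8.06), and it made up 74.2% of the summed TPM of the JUN genes. In reads, with no length, the ratio of *Junb* to *Jun* was 5.62, and with the longest transcript as length it was 9.91. *Jun* and *Jund* have 1 annotated exon each, and *Junb* at most 2.

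The value of *Jund* is the least certain of the 3. An antisense gene, *Gm11175*, lies over 52.6% of the exon bases of *Jund* and had 2271 reads of its own. Counting by strand is not stated in the sources used here, and without it reads of this pair cannot be told apart. If all reads of *Gm11175* were given to *Jund*, it would have 5881 reads and 292 TPM, above *Atf3*. Neither 179 nor 292 TPM is a limit. Reads counted for *Jund* may belong to *Gm11175*, and how reads in the shared bases were counted is not stated. Overlap with exons of the opposite strand was 7.28% for *Jun* (with *Junos*), 7.52% for *Junb* (with *Prdx2*), 2.02% for *Batf2* (with *Arl2*) and 0% for the other 6 genes.

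*Atf3* (ENSMUSG00000026628.13, chromosome 1, 191170296 to 191218039, minus strand) encodes a stress-induced factor that is known to dampen TLR-induced cytokine genes. It had 7095 reads, 226 CPM (95% CI, 221 to 231) and 273 TPM, at percentile 97.2. *Junb* was 2.99 times as high per length (95% counting interval, 2.91 to 3.07), and *Atf3* was 1.52 times as high as *Jund* (1.46 to 1.58). The ratio to *Jund* leaves out the reads of *Gm11175*. With them *Jund* (292 TPM) would stand above *Atf3*. *Atf3* alone made up 17.5% of the summed TPM of the 10 genes.

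The FOS genes encode obligate partners of JUN proteins. *Fos* (ENSMUSG00000021250.13, chromosome 12, 85473890 to 85477273, plus strand), the classical immediate-early gene, had 1464 reads, 46.6 CPM (95% CI, 44.3 to 49.1) and 51.5 TPM, at percentile 86.4. *Fosl2* (chromosome 5, 32135801 to 32157842, plus strand), which encodes FRA2, had 33 reads, 1.05 CPM (95% CI, 0.748 to 1.48) and 0.282 TPM. *Fosb* (chromosome 7, 19302696 to 19310051, minus strand) had 17 reads, 0.541 CPM (95% CI, 0.338 to 0.867) and 0.226 TPM. *Fos* therefore made up 99.0% of the summed TPM of the FOS genes, and the other two were at percentiles 9.84 and 7.80. The ratio of *Fosl2* to *Fosb* per length was 1.25 with a 95% counting interval of 0.678 to 2.40, so their order was not detectable at this depth. The ratio of their reads, with no length, was 1.94. Both remained above the floor of 3 reads, or 0.0955 CPM. *Fosl1*, the FOS gene outside the 10, had 34 reads and 1.39 TPM.

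The BATF genes encode partners of JUN proteins. *Batf* and *Batf3* have coding sequences of 375 and 354 bases, and *Batf2* has a longer one of 831 bases. *Batf* (ENSMUSG00000034266.6, chromosome 12, 85686669 to 85709087, plus strand) had 2122 reads, 67.6 CPM (95% CI, 64.7 to 70.5) and 125 TPM, at percentile 93.8. *Batf2* (chromosome 19, 6140983 to 6172476, plus strand), known as an IFN-inducible gene, had 163 reads, 5.19 CPM (95% CI, 4.45 to 6.05) and 5.35 TPM, near the median of genes with reads. *Batf3* (chromosome 1, 191097847 to 191108945, plus strand) had 48 reads, 1.53 CPM (95% CI, 1.15 to 2.03) and 2.49 TPM, at percentile 39.1. *Batf* was 23.4 times as high per length as *Batf2* (95% counting interval, 19.9 to 27.6) and 50.2 times as high as *Batf3* (37.7 to 68.3). In reads, with no length, it was 13.0 times as high as *Batf2*. *Batf* made up 94.1% of the summed TPM of the BATF genes.

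By subfamily, the JUN genes held 70.6% of the summed TPM, *Atf3* 17.5%, the BATF genes 8.53% and the FOS genes 3.34%. The sum of the JUN genes was 1099.8 TPM, which was 21.1 times that of the FOS genes (52.1 TPM), 8.28 times that of the BATF genes (133 TPM) and 2.40 times that of the FOS, BATF and *Atf3* genes together. In reads, with no length, the ratio of JUN to BATF genes was 13.0. Among the best-known pair, *Jun* exceeded *Fos* 2.03-fold per length (95% counting interval, 1.91 to 2.16). In reads this ratio was 2.75, and with the longest transcript as length it was 1.82. In each of the 3 subfamilies of 3 genes, 1 gene held most of the level, namely *Junb*, *Fos* and *Batf*. These are levels of RNA, and the proteins and dimers were not measured.

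The places of 3 of the genes depended on the length used. Without a length, in CPM, the order from place 3 to place 5 was *Jun*, *Jund* and *Batf*. Per union of exon bases it was *Jund*, *Batf* and *Jun*. *Batf* has 1406 exon bases and *Jun* has 3189, so that *Jun* had more reads than *Batf* but a lower level per length. With the longest annotated transcript of each gene as its length, *Batf* (147 TPM) stood above *Jund* (144 TPM). *Junb* and *Atf3* at the top, and *Fos*, *Batf2*, *Batf3*, *Fosl2* and *Fosb* at the bottom, kept their places under the 3 measures. Of the 9 pairs of neighbours in the order per exon length, 8 had a counting interval of their ratio that did not include 1, the exception being *Fosl2* and *Fosb*. These places and intervals leave out the reads of *Gm11175*, with which *Jund* (292 TPM) would stand above *Atf3*.

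**Figure D3:**
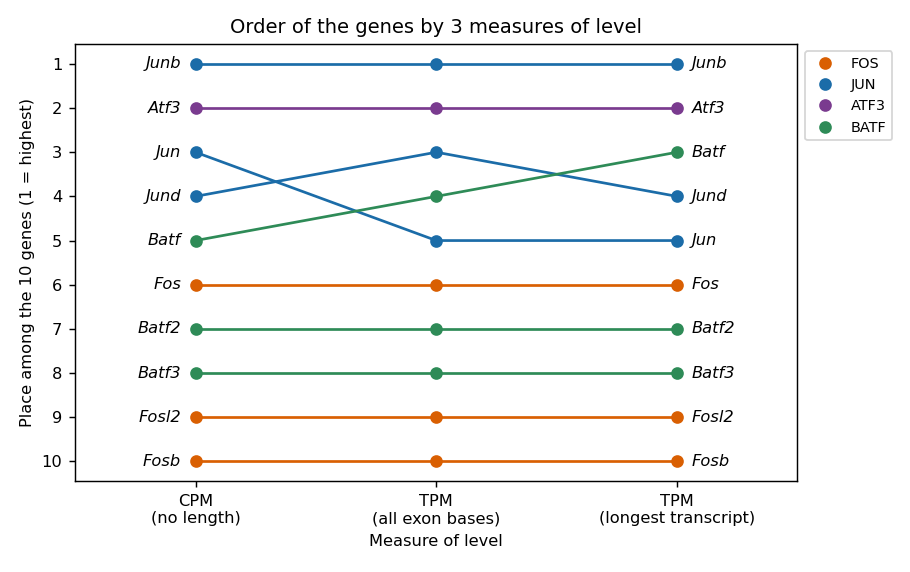
Place of each of the 10 genes, 1 being the highest, by CPM, by TPM over all exon bases and by TPM over the longest transcript, coloured by subfamily. Lines cross for *Jun*, *Jund* and *Batf* alone, which share places 3 to 5.

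Reads that fit more than 1 of these paralogs were looked for in the annotated transcripts. Of the 50-base windows of each gene, 0% occurred identically in another of the 10 genes or in any other annotated gene on the same strand. Reads placed with mismatches were not tested.

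*Fos* and *Batf*, and *Batf3* and *Atf3*, are chromosomal neighbours. *Fos* and *Batf* lie 209 kb apart on chromosome 12, with *Jdp2*, another bZIP gene that encodes a repressor of AP-1, between them. *Jdp2* had 232 reads and 8.94 TPM, lower than *Fos* (51.5 TPM) and *Batf* (125 TPM) on either side. *Batf3* and *Atf3* lie 61.4 kb apart on chromosome 1 on opposite strands. *Atf3* was 109.6 times as high per length as *Batf3* (95% counting interval, 82.6 to 149), and the protein-coding gene between them, *Fam71a*, was listed at 0.

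**Figure D4:**
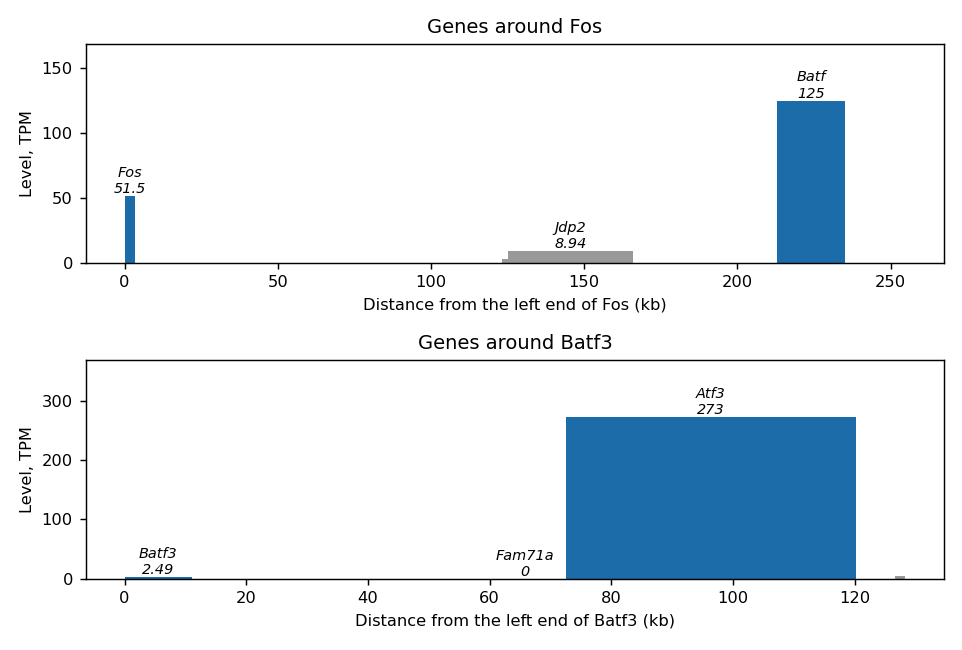
Levels in TPM of the genes around *Fos* (upper panel) and *Batf3* (lower panel), plotted at their distance in kb from the left end of that gene. Bar width is the genomic span, blue bars are genes of the 10 and grey bars are other genes. *Jdp2* (8.94 TPM) stands between *Fos* and *Batf*, and *Batf3* (2.49 TPM) beside *Atf3* (273 TPM).

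Among all 52 bZIP genes listed, 45 had reads, and the 10 genes held 39.4% of their summed TPM. *Junb* was second to *Xbp1* (963 TPM), a factor of the unfolded protein response and of secretory cells. *Atf3* was at place 4, between *Ddit3* (280 TPM), which encodes CHOP, and *Atf4* (270.0 TPM), the factor of the integrated stress response. The counting interval of *Atf3*, 267 to 279 TPM, included the value of *Atf4*. In reads, *Atf4* (7688) was above *Atf3* (7095) and *Ddit3* (5800) below it. *Jund* was at place 6, *Batf* at 9, *Jun* at 10 and *Fos* at 15, so 5 of the 10 highest by TPM were from the AP-1, ATF3 and BATF genes. These places depended on the length. *Mafk* (4486 reads) and *Atf6* (4565 reads), at places 12 and 16 by TPM, had more reads than *Jund* (3610), *Batf* (2122) and *Jun* (4032). Of the 42 other bZIP genes, 35 had reads and 7 were listed at 0. The median of the 42 was 5.54 TPM, and over the 35 with reads it was 9.62 TPM. *Bach2* (13 reads) and *Maf* (10 reads) were the lowest per length among those with reads.

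BATF factors bind with IRF4 and IRF8, and the genes of these partners were unequal. *Irf8*, a factor of pDC and cDC1 identity, had 93189 reads and 1094 TPM. Per exon length this was 8.75 times the level of *Batf* and 439 times that of *Batf3*, and in reads 43.9 and 1941 times. *Irf4* had 695 reads and 11.7 TPM, and *Batf* was 10.6 times as high per exon length and 3.05 times in reads. Beside the low *Batf3* (percentile 39.1), the 7 cDC1 genes were uneven. *Xcr1* (percentile 24.7), *Wdfy4* (39.2) and *Itgae* (48.0) lay below the median of all genes with reads. The other 4, *Tlr3* (61.3), *Cadm1* (76.6), *Clec9a* (87.8) and *Cd8a* (96.8), lay above it. The part of other cells in these values was not tested.

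Of 25 genes of MAP kinases and their adaptors upstream of AP-1, 24 matched 1 gene each, 21 had reads and 3 were listed at 0. The median of the 24 was 15.5 TPM (23.4 over those with reads), and 15 of the 24 lay above the median of all genes with reads. *Map2k1*, an activator of the ERK kinases, was the highest with 329 TPM, followed by *Map2k2* with 61.9 and *Map2k3* with 60.6, and the lowest with reads were *Rps6ka3* (0.746 TPM) and *Map2k6* (0.385 TPM). *Map2k7* was left out because its symbol matched more than 1 gene.

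Genes that restrain or regulate AP-1 and its kinases all had reads, with a median of 14.2 TPM over 14 genes. The 3 highest encode phosphatases of MAP kinases, *Dusp5* with 586 TPM, *Dusp2* with 219 and *Dusp1* with 209.7, and *Fbxw7* (2.68 TPM) and *Dusp4* (1.63 TPM) were the lowest. *Dusp5* was thus in the range between *Junb* and *Atf3*.

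Of 15 other immediate-early genes, 13 had reads, with *Klf6* (619.8 TPM), *Zfp36* (455 TPM), which encodes a protein that destabilizes cytokine mRNAs, and *Ier5* (271 TPM) highest. *Klf4* (2.63 TPM) and *Egr2* (0.585 TPM) were the lowest with reads, and the other two were listed at 0. The median of the 15 was 14.4 TPM (30.5 over the 13 with reads), beside 78.1 TPM for the 10 AP-1, ATF3 and BATF genes.

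**Figure D5:**
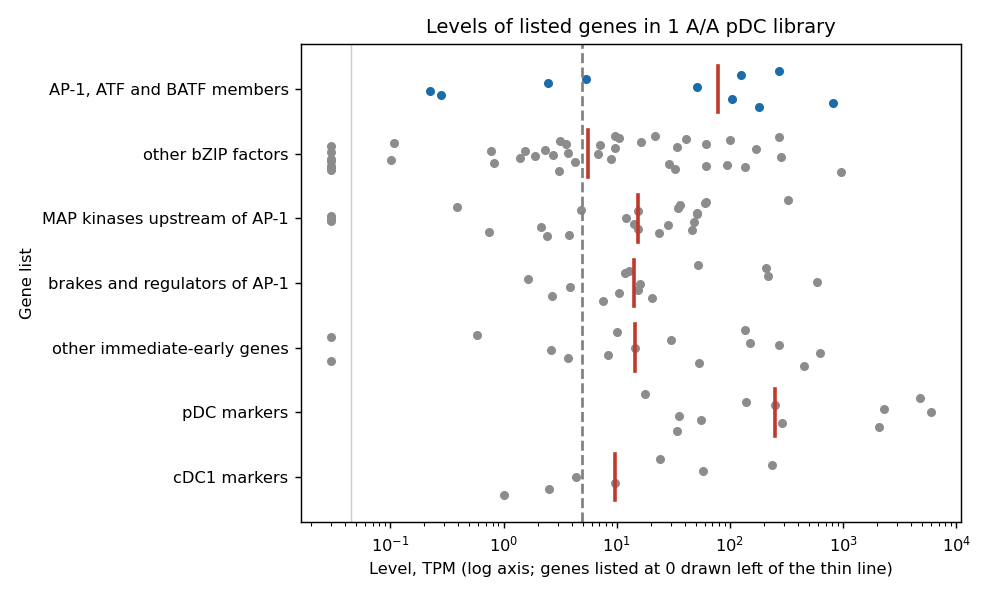
Level in TPM (log axis) of every gene of 7 lists in A/A replicate 1. Each point is a gene, red bars are list medians with genes at 0 included, points left of the thin line are genes listed at 0, and the dashed line is the median of all genes with reads. The AP-1, ATF3 and BATF genes (blue) run from 0.226 to 816 TPM with a median of 78.1 TPM, below the pDC markers (251 TPM).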

How the data were processed

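Total RNA of sorted, R848-stimulated splenic pDCs was sequenced as mRNA libraries. The submitters' processing notes name HISAT2, StringTie and the builds mm10 and mm8, and the study's methods name DESeq2. The counting tool, the annotation and the use of strand are not given in the sources used here. The authors deposited 1 value per gene, a normalized signal, for A/A replicate 1. Each value above 0 was a whole multiple of 1.19 (100% within 0.05 of a read), so reads were recovered by dividing by that step. Recovery was tested on 3 simulated libraries of 52550 genes, built as whole reads divided by a common factor, and 100% of reads were recovered. That outcome checks the calculation and cannot show that the deposited values have this form. The genes matched GENCODE M21 for 99.7% of identifiers, with equal coordinates for 95.2% of those and for all 10 genes described.

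CPM is reads per 1000000 reads. TPM uses the union of exon bases, and genes without a length (0.0490% of reads) were left out. Percentiles count ties by their midpoint. Intervals are Wilson 95% intervals, or, for ratios, exact binomial intervals of the reads. They cover counting error only, because 1 library was used. They treat each read as a separate RNA molecule. Copies made by PCR were not told apart, so the counting error itself may be larger than shown. The floor was 3 reads. Genes with a deposited value of 0 are given as listed at 0. Every gene of the lists with a value above 0 had at least 10 reads. In the whole library, 14437 of the 17664 genes with reads did. Whether low counts of some genes had been set to 0 before deposit was not tested. Medians of gene lists include genes listed at 0 unless stated, whereas the median over all genes counts genes with reads only. The genes and lists were chosen with earlier results of these data known. Named from each pathway list were the 3 highest and the 2 lowest genes with reads, a rule not carried through for the marker lists. The marker genes named, *Fosl1*, *Jdp2*, *Fam71a* and the antisense genes were chosen after their values were seen. With 1 library, no test between genotypes was made and no list was tested. Protein sequences were not used here. Python 3.11.15, numpy 2.4.6, pandas 2.3.3, scipy 1.17.1 and matplotlib 3.10.9 were used.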

Additional observations from a re-analysis of the deposited data

Results flagged for a closer look

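Values of 2 genes lie outside the 10 genes and above the floor of 3 reads, and no control library was analysed here. *Gm11175*, antisense to *Jund*, had 72.3 CPM. *Junos*, antisense to *Jun*, had 9.23 CPM and shares 232 exon bases with it. Whether these reads come from the antisense RNA or from the AP-1 gene was not tested.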

How the results depend on the processing

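No paired analysis was possible because 1 library was analysed here. The 10 genes had 1313 CPM in all, 1455 CPM with the 10 highest genes of the library left out of the total, and 49174 in the deposited unit, both by construction. With the longest transcript as length, the *Atf3* share of summed TPM was 15.8%, the BATF share 10.5% and the FOS share 3.11%. With no length the BATF share was 5.66%, the FOS share 3.67% and the JUN share 73.5%, and the order of the subfamilies was the same under these lengths. In the order of the 10 genes, 8 kept their place with the longest transcript and 7 with no length. Adding the *Gm11175* reads, chosen after seeing the data, moved *Jund* from 179 to 292 TPM. Percentiles of the 10 genes by CPM among genes with reads moved beyond counting error under all 3 alternatives. Over all genes and over genes with at least 10 reads they moved by construction. The percentiles given in the Results are those per kilobase of exon. Per kilobase of exon, *Fosl2* moved most, from percentile 30.8 to 9.84. A pseudocount of 0.1 in place of 1 moved the log2 level of 4 genes, the lowest being *Fosb*, from 0.62 to -0.64. Counts of listed genes were the same with at least 10 reads. Depth limited *Fosb*, *Fosl2* and *Batf3*, which had under 50 reads each.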
